A study of Rattus norvegicus with 4 samples.

Results

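Genes for collagen chains, laminin chains and the proteins that join them in basement membranes were compared between Sox10-deficient and control OLN93 cells. They were chosen by gene symbol: Col followed by a number, the letter a and a number, Lama, Lamb or Lamc followed by a number, and Nid1, Nid2, Fn1, Hspg2 and Agrn. The files held 58 such genes, of which 38 were among the 17327 gene symbols with counts. Col4a3bp starts like a collagen symbol but belongs to a ceramide transfer protein and was not a member. OLN93 is a rat cell line of the oligodendroglial lineage that became immortal without a transgene. The 2 Sox10-deficient samples, clone A and clone B, were edited by CRISPR/Cas9 with different guide RNAs, and each is 1 clone. The 2 control samples are labelled as biological replicates of control OLN93 cells, and the study's methods call them control clones. Both held Sox10 counts. All 4 were grown in serum-containing medium, and p-values measure only the spread between these samples.

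Basement membranes are sheets of extracellular matrix in which a network of collagen IV and a network of laminin are linked by nidogens and the proteoglycans perlecan and agrin. Collagen chains assemble as triple helices, and each laminin joins an alpha, a beta and a gamma chain. Fibrillar collagens, collagen VI and fibronectin form the interstitial matrix next to these sheets. Oligodendroglial cells meet laminin and fibronectin through integrins and dystroglycan, and these contacts are known to affect their survival, migration and formation of processes.

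The counts summed to between 60951 and 104017 per library, and 3 counts, taken as the floor, corresponded to between 29.0 and 48.2 CPM (the count scaled to a common library size in edgeR, with TMM normalization). Sox10 itself had 28 and 64 counts among the controls against 0 in clone A and 14 in clone B, so that clone B kept reads of the targeted gene. Its log2 fold change was -2.74 (standard error 0.62, edgeR quasi-likelihood test, adjusted p = 0.0172), and the call was lost without clone A (-1.76, adjusted p = 0.0959), with DESeq2 (adjusted p = 0.9998), with the replicate block (0.1251) and without genes that had too many counts for the authors' mean (0.108). Without clone B it was -8.51, against a lone clone at 0 counts, and is no measure of size. Counts of Sox10 RNA do not show whether clone B made Sox10 protein, and the study treats both clones as Sox10-deficient. Of 14 oligodendroglial markers, 10 passed the floor in at least 1 library and Mag was at 0, with a summed level of 2970 to 3570 CPM in the controls and 2050 to 2130 CPM in the clones. This sum includes Sox10, and its members differed in direction: the mean of Cnp was 827 CPM in the controls and 315.8 CPM in the clones, that of Cspg4 278.5 and 539.4 CPM, and that of Pdgfra 368.6 and 428.7 CPM. Olig1, with 12 and 1 control counts, and Olig2, with 7 and 0, passed the floor in control 1 alone and were at 0 in both clones. Of 10 markers of fibroblasts and meningeal cells, 6 were at 0 in every library, among them Dcn, Lum and Thy1, and the sum was 193 to 339 CPM in the controls and 113 to 197 CPM in the clones. Of 8 endothelial and pericyte markers, 6 were at 0, and the sum did not pass 64.2 CPM. The 8 Schwann cell and neural crest markers present in the counts, with Cdh19 and Pou3f1 at 0, summed to 1200 to 1420 CPM in the controls and 488 to 543 CPM in the clones. The 7 astrocyte markers, with Aqp4, Aldh1l1, Slc1a2 and Slc1a3 at 0, summed to 213 to 434 CPM in the controls and 34.7 to 56.7 CPM in the clones. In the controls this was almost wholly S100b, at 417.6 and 213 CPM against 23.1 and 11.3 CPM in the clones, while Gfap had 1 count in all and Gja1 had counts in the clones alone, 1 and 4. The part of these shifts in the matrix genes was not tested.

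Counts were high enough for a test in 14 of the 58 members, which were 9 collagens, 4 laminins and Fn1. Col4a1 and Lamc1 fell and Col6a2 rose in the Sox10-deficient clones by at least 2-fold with an adjusted p of 0.05 or less. Over all 2438 tested genes, 2.50% were lower and 1.11% were higher by this criterion. With the unadjusted p, as the study's criterion can be read, Lama4 joined the lower genes, which made 3 lower members and 1 higher member, where 6.97% and 4.63% of all tested genes were lower and higher. The other 10 tested members met neither criterion. The levels of the clones lay below both controls for 8 of the 14, where 21.5% of all tested genes were placed in this way, and above both for 2, where 21.6% were. In one direction or the other this held for 10 of the 14 and for 43.2% of all tested genes. Col4a1, Lama4, Col16a1 and Col27a1 are among the 8, and their counts were high enough for a test only through the controls. The numbers of members placed in this way are therefore no result about the members as a group. The median log2 fold change was -0.68 over these 14 members and -0.006 over all tested genes. The median over members depended on the filter. With at least 10 counts required in every library, it was 0.12 over the 10 members kept. That filter removed Col4a1, Lama4, Col16a1 and Col27a1, which had low counts in the clones alone. In RNA from whole cultures, fewer cells that express a gene and less RNA of it per cell cannot be told apart.

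**Figure D1:**
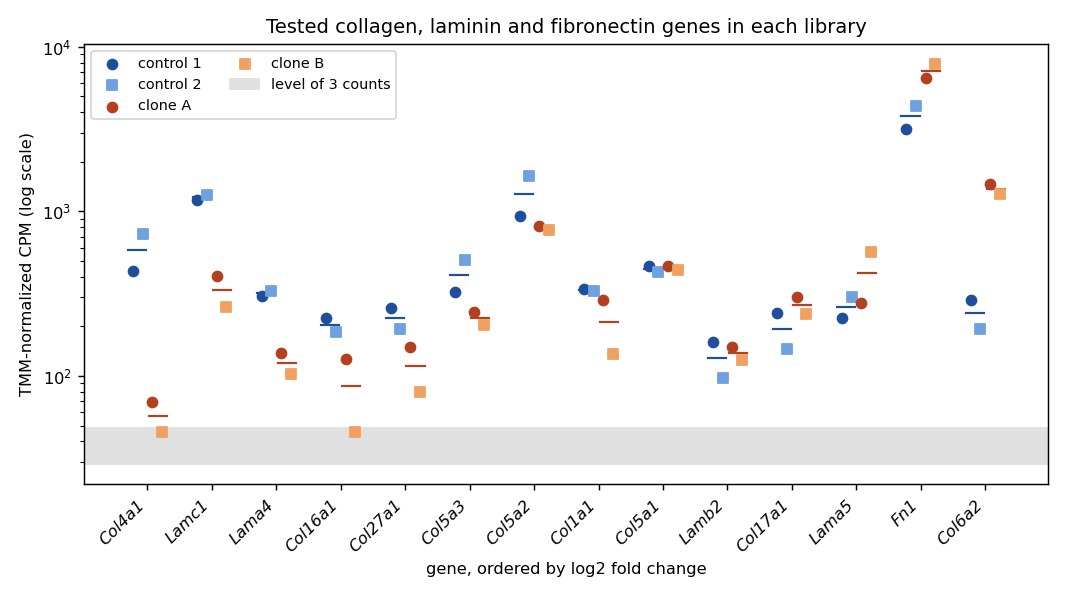
TMM-normalized CPM on a log axis for the 14 tested members in each of the 4 libraries, ordered by log2 fold change. Points are libraries, short lines are group means, and the grey band spans the level of 3 counts in the 4 libraries. Levels are not corrected for gene length. Col4a1, Lamc1 and Lama4 at the left had both clones below both controls, and Fn1 and Col6a2 at the right had both clones above.

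**Figure D2:**
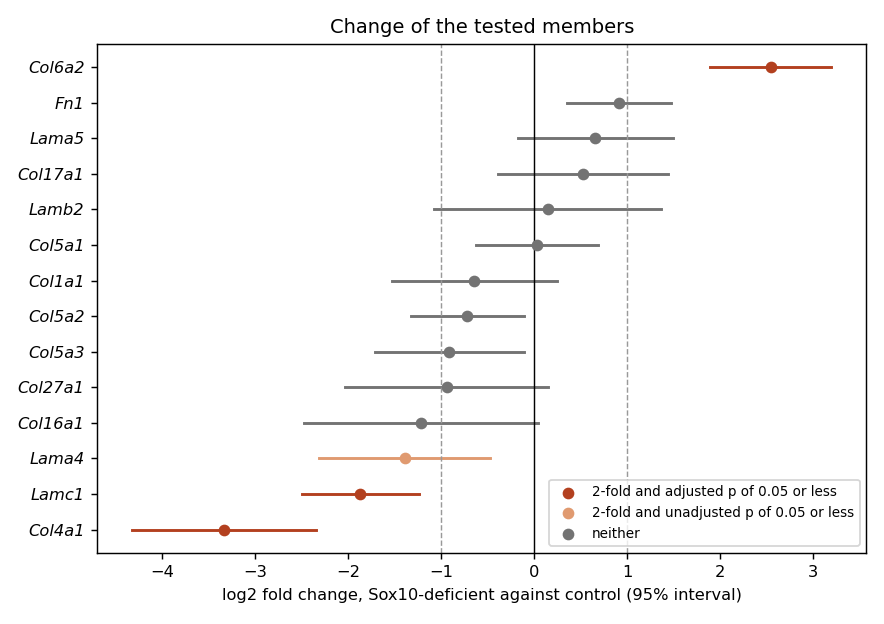
Log2 fold changes of the 14 tested members, Sox10-deficient against control, with 95% intervals from edgeR's quasi-likelihood fit. Colours mark the criterion met, the solid line is no change, and dashed lines mark 2-fold. The intervals of Col4a1, Lamc1 and Col6a2 lie beyond 2-fold.

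Col4a1 (ENSRNOG00000016281) encodes a chain of the collagen IV network that all basement membranes contain. The controls held 27 and 75 counts of it, while clone A held 6 and clone B 4. The level was 433.6 and 726 CPM in the controls, with 69.4 and 45.4 CPM in clones A and B, so that each clone lay between 6.25-fold and 16.0-fold below each control. The mean fell from 579.8 ± 207 to 57.4 ± 17.0 CPM (SD, n = 2 each). On the log2 scale this was a change of -3.34 (standard error 0.47, 95% interval -4.32 to -2.35, edgeR adjusted p = 0.000358). This was the largest decrease among the tested members. Col4a3 and Col4a4 were at 0 counts in all libraries, and Col4a2, Col4a5 and Col4a6 were not among the symbols with counts.

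Lamc1 (ENSRNOG00000002680) encodes the gamma chain shared by most laminins. Its counts were 73 and 130 in the controls against 35 and 23 in clones A and B. These corresponded to 1172 and 1258 CPM in the controls and to 404.7 and 260.8 CPM in the clones, with each clone 2.90-fold to 4.83-fold below each control. The controls were close to each other, with a mean of 1215 ± 60.9 CPM, against 332.8 ± 102 CPM in the clones (SD, n = 2 each). The fitted change was -1.87 on the log2 scale (standard error 0.30, 95% interval -2.50 to -1.24, edgeR adjusted p = 0.00107). Lamc3 was at 0 counts in every library.

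The alpha chains, which carry the main receptor-binding sites of laminins, had fitted changes of opposite sign. Lama4 (ENSRNOG00000000599), the alpha chain of laminins in vessel walls and peripheral nerve, had 19 and 34 counts in control cells and, for clones A and B, 12 and 9. Its level was 305.1 and 329.1 CPM in the controls, with 138.8 and 102.1 CPM in the clones. Both clones lay below both controls, with a fitted log2 change of -1.39 (standard error 0.44, unadjusted p = 0.00522 and adjusted p = 0.0939 from edgeR). Lama5, the alpha chain of laminins widespread in mature basement membranes, had 14 and 31 counts in control cells and, for clones A and B, 24 and 50. Clone A, at 277.5 CPM, lay between the controls at 224.8 and 300.1 CPM, and clone B was higher at 567 CPM. The log2 fold change of Lama5 was 0.66, with a 95% interval from -0.18 to 1.49 and an adjusted p of 0.495 from edgeR. Within a library, Lama5 had 0.737 and 0.912 counts per count of Lama4 in the controls, as compared with 2.00 and 5.56 for clones A and B. These ratios did not overlap, but the pair was chosen after its values were seen. The 2-sided exact permutation test gave p = 0.333, the smallest value that 2 libraries against 2 allow, so that this test could not decide. Lama1 was at 0 counts in all libraries.

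Of the beta chains, Lamb2 had 10 and 10 control counts against 13 and 11 in the clones. The clones, at 150.3 and 124.7 CPM, lay between the controls at 160.6 and 96.8 CPM. The log2 fold change was 0.14, with a 95% interval from -1.07 to 1.36, which leaves room for a 2-fold change in either direction. Lamb3 had 1 count, in clone B. Summed over the 8 laminin chains with a symbol in the counts, the level was 1863 and 1984 CPM in the controls, with 971.3 and 1066 CPM in the clones. Most of the difference in this sum came from Lamc1.

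The regions around the annotated starts of Col4a1, Lamc1 and Lama4 are shown as those of the 3 chains that met a criterion for lower levels. They are the RefSeq windows of 250 bases before and 50 bases after the start in assembly GRCr8, 5′ to 3′ along the gene, with GC boxes (GGGCGG), the CCAAT box (CCAAT) and the TATA box (TATAAA) in capitals where they occurred on either strand. Col4a1 lies at chr16:84885347-84885646 on the plus strand, Lamc1 at chr13:68051937-68052236 on the minus strand and Lama4 at chr20:43946648-43946947 on the plus strand.
Col4a1: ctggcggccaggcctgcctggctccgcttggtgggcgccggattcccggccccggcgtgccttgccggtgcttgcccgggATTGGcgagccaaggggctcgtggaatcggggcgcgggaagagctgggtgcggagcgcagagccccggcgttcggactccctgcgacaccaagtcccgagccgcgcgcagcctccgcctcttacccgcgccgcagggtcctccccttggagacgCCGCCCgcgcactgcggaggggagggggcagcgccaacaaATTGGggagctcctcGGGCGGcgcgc
Lamc1: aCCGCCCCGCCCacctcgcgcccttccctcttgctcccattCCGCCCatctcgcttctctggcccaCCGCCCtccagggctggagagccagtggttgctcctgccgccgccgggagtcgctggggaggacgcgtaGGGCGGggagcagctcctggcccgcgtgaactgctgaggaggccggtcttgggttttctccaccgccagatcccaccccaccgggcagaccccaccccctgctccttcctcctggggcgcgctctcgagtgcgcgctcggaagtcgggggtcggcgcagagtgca
Lama4: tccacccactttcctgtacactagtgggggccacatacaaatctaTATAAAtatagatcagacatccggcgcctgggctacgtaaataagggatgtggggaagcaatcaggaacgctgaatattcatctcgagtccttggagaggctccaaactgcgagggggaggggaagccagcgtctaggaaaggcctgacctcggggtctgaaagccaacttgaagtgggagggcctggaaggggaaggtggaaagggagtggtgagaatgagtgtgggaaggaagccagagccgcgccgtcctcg

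The Col4a1 window faces that of Col4a2, which starts on the opposite strand 76 bases away, and the windows share 176 bases. It held 2 GC boxes, which began at positions -16 and 40, with the start counted as 1 and the base before it as -1, and 2 CCAAT boxes on the opposite strand, which began at -170 and 25. Lamc1 held 5 GC boxes and no CCAAT box. Lama4 held neither, and its TATA box match began at position -205. The G and C content was 75% for Col4a1, 71.7% for Lamc1 and 55% for Lama4, where the median of all promoters was 52.3%. A Sox-type motif, taken as ACAAAG or as ACAATG on either strand, was in none of these 3 windows. It was in 28.6% of 27457 rat promoters of the same length, and among the 10 tested members with a promoter it was in Col17a1. GC boxes were in 7 of these 10 and in 34.9% of all promoters. CCAAT boxes were in 3 of the 10 and in 37.7% of all promoters, and the TATA box in 2 and in 14.3%. All promoters include those of genes that were not tested here. The shares among promoters of tested genes alone were not computed, so that these contrasts are no result about matrix genes. Matches are letters in a window and were not tested for binding. Col6a2, Fn1, Col1a1 and Lamb2 had no window here.

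Col6a2 (ENSRNOG00000001254) encodes a chain of collagen VI, which forms beaded filaments between interstitial matrix and basement membranes. It was the most increased member. Its counts were 18 and 20 in the controls against 126 and 113 in clones A and B, or 289.1 and 193.6 CPM against 1457 and 1281 CPM. Each clone was between 4.43-fold and 7.53-fold above each control. The mean rose from 241.3 ± 67.5 to 1369 ± 124 CPM (SD, n = 2 each). On the log2 scale the change was 2.54 (standard error 0.31, 95% interval 1.89 to 3.20, edgeR adjusted p = 8.58e-05). Against Col4a1, the counts of Col6a2 within a library made a ratio of 0.667 and 0.267 in the controls and of 21.0 and 28.2 in clones A and B, which is not corrected for gene length. This pair sets the most increased against the most decreased tested member and was chosen after their values were seen. Col6a4 was at 0 counts. Col6a1 and Col6a3, whose chains assemble with that of Col6a2, were not among the symbols with counts, so that their change was not analysed here.

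The fibrillar collagens, which build the striated fibrils of the interstitial matrix, met no criterion in 5 of 5 tested genes. In collagen V, the chains of which regulate fibril diameter, the 3 tested genes had different fitted values, and the differences between them were not tested in the fit. Col5a1 had 29 and 44 control counts against 40 and 39 in the clones, and its levels of 465.7, 425.9, 462.5 and 442.2 CPM in controls 1 and 2 and clones A and B lay close together. Its fitted log2 fold change was 0.03 with a 95% interval from -0.63 to 0.69, so that a change of 2-fold lies outside the interval. Col5a2 had 58 and 168 control counts against 70 and 68 in the clones, or 931.5 and 1626 CPM against 809.4 and 771.1 CPM. Both clones were below both controls, but control 1 was nearer to the clones than to control 2. Its fitted change was -0.72 on the log2 scale (standard error 0.29, edgeR adjusted p = 0.222). It hung on control 2, as it was -0.24 without this library, while without control 1 it was -1.04 with an adjusted p of 0.0216.

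The study named Col5a3, a collagen V chain, as a candidate Sox10 target. It was selected on a fall of at least 2-fold in these same samples. Selection also required a nearby Sox10 binding site from other CNS data and preferential expression in oligodendrocyte precursor cells. Col5a3 had 20 and 52 counts in control cells and, for clones A and B, 21 and 18. The levels were 321.2 and 503.4 CPM in the controls, with 242.8 and 204.1 CPM in the clones. The clones did not overlap with the controls, and each was between 1.32-fold and 2.47-fold lower. The fitted value of -0.91 on the log2 scale (standard error 0.38, 95% interval -1.71 to -0.11, edgeR adjusted p = 0.245) missed both criteria, the unadjusted one by its size. A 2-fold decrease lies within this interval. The study used DESeq2, and the counts here are far below its read numbers. Relative to Col5a1 in the same library, the ratio of Col5a3 was 0.690 and 1.18 in the controls, as compared with 0.525 and 0.462 for the clones. This ratio did not overlap between the groups. As the levels of Col5a1 lay close together, it largely restates those of Col5a3 and is no second result. The exact permutation p was 0.333, the smallest that 2 libraries against 2 allow, so that this test could not decide.

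Col1a1, the main chain of collagen I, had 21 and 34 counts in control cells and, for clones A and B, 25 and 12. Clone A, at 289.1 CPM, was near the controls at 337.3 and 329.1 CPM, and clone B was at 136.1 CPM. The fit gave a log2 fold change of -0.65 with a 95% interval from -1.53 to 0.24. Col27a1, a fibrillar collagen of cartilage, had 16 and 20 control counts against 13 and 7 in the clones. Its log2 fold change was -0.94 with a 95% interval from -2.04 to 0.15. For Col1a1, Col27a1 and Col16a1 alike, clone B lay furthest from the controls, and the 3 genes met the unadjusted criterion when clone A was left out, where clone B is a single library and the spread comes from the controls. Col1a2, the partner chain of Col1a1, was at 0 counts in all libraries and at a mean of 0 in the authors' table. Col3a1 had 2 and 3 control counts against 0 and 5 in the clones, too few for a test.

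Summed over the fibrillar collagens, the level was 2393 and 3117 CPM in the controls, with 1954 and 1690 CPM in clones A and B. The sum of all collagen chains overlapped between the groups, at 3710 and 4617 CPM in the controls, with 4036 and 3493 CPM in the clones. Without Col6a2 it did not overlap, at 3421 and 4424 CPM against 2579 and 2211 CPM. Col6a2 was left out as the most increased member in these same data, which by construction lowers the sums of the clones. The second sum is therefore no result about the other collagens as a group. These sums add genes of different length and were given no test.

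**Figure D3:**
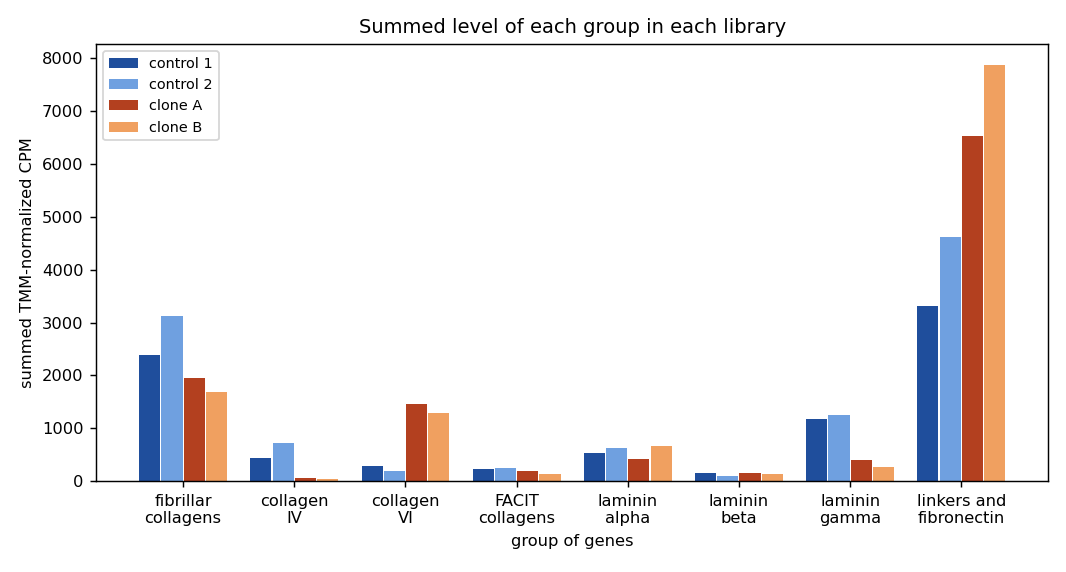
Summed TMM-normalized CPM of each group of members in each library, on a linear axis from 0. Bars are single libraries. The bars for collagen IV, the gamma laminins and collagen VI each hold 1 gene with counts (Col4a1, Lamc1 and Col6a2), and those for linkers and fibronectin are almost wholly Fn1. The fibrillar and FACIT sums were lower in both clones than in both controls, and the alpha and beta laminins overlapped. The FACIT sum includes Col9a2, a gene with an uncertain level, at 16.1 and 58.1 CPM in the controls and 69.4 and 90.7 CPM in clones A and B.

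Fn1 (ENSRNOG00000014288) encodes fibronectin, which cells bind through integrins and assemble into fibrils. It held 198 and 452 counts in the controls and, for clones A and B, 557 and 691. The levels were 3180 and 4375 CPM in the controls, with 6441 and 7836 CPM in the clones. Both clones were above both controls, from 1.47-fold to 2.46-fold. The change on the log2 scale was 0.91 (standard error 0.27, 95% interval 0.35 to 1.47, unadjusted p = 0.00319, edgeR adjusted p = 0.0687), so that Fn1 met neither criterion by its size. Without control 2 its log2 fold change was 1.17 with an adjusted p of 0.0394, and without control 1 it was 0.71 with an adjusted p of 0.285.

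Agrn (ENSRNOG00000020205) encodes agrin, the heparan sulfate proteoglycan that binds laminin and dystroglycan. It had 5 and 11 counts in control cells and 1 in each clone, and was not kept for the test. Pooled over the libraries, its level was 8.44 times higher in the controls, with an exact 95% interval for counting error from 1.98 to 75.7. Agrn was named because its counts were few in the clones and not in the controls. A ratio well away from 1 was therefore built into the choice. The interval does not allow for this and is no evidence that Agrn fell. Without a filter on low counts, edgeR gave a log2 change of -2.88 (standard error 1.12, unadjusted p = 0.0102, adjusted p = 0.316). Nid2, a nidogen that links laminin to collagen IV, had 3 and 14 control counts against 6 and 2 in the clones. The groups overlapped, and the pooled ratio of controls to clones was 2.24 with a 95% counting interval from 0.917 to 6.0.

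Among the remaining collagens, Col16a1, which is associated with fibril surfaces, had 14 and 19 counts in control cells and, for clones A and B, 11 and 4. The controls, at 224.8 and 183.9 CPM, lay above the clones at 127.2 and 45.4 CPM. The log2 fold change was -1.22 (standard error 0.60, edgeR adjusted p = 0.363) with a 95% interval from -2.48 to 0.04. Col8a1, a short chain of network-forming collagen in endothelial matrix, had 5 and 13 control counts against 2 and 9 in the clones. Col18a1, the source of endostatin, had 2 and 6 control counts against 3 and 0 in the clones. At this depth no difference was detectable for either gene, with pooled ratios of controls to clones of 1.73 (95% counting interval 0.772 to 4.04) and 2.81 (0.675 to 16.5).

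Col17a1, Col9a2 and Col2a1 had far more deposited counts than their means in the authors' table would give. A deposited count per library was usually 0.384% of the authors' mean normalized count, the median over 5386 genes with a mean of at least 500. Col17a1, a transmembrane collagen of epithelial hemidesmosomes, had 15 and 15 control counts against 26 and 21 in the clones. The authors' mean for it is 18, which makes 278 times the usual share. For Col9a2, a chain of cartilage collagen IX, the authors' mean is 16 and the counts were 1, 6, 6 and 8, or 85.4 times the usual share. Col2a1, of cartilage fibrils, had 3 and 1 counts in control cells and 0 in the clones with an authors' mean of 12, or 21.7 times. The cause was not tested. Levels of these 3 genes were therefore read as uncertain, including the log2 fold change of 0.53 (95% interval -0.38 to 1.44) for Col17a1. The members with changes lay at the usual share, with 1.2 times for Col4a1, 0.936 for Lamc1, 0.79 for Col6a2 and 0.776 for Lama4. Of the 10 oligodendroglial markers over the floor, Sox10, Pdgfra, Cspg4, Ptprz1 and Cnp lay between 0.902 and 1.16 times. Olig1 lay at 5.53, Nkx2-2 at 5.06 and Myrf at 2.64 times, and no share was available for Olig2 and Mog.

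**Figure D4:**
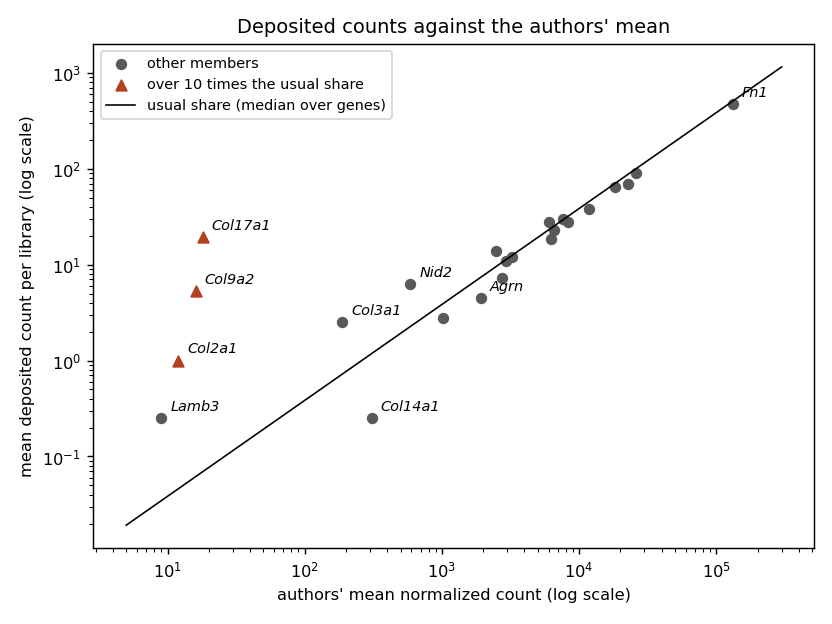
Mean deposited count per library against the authors' mean normalized count, both on log axes, for the members with at least 1 count and an authors' mean above 0. The line is the usual share of 0.384%, and triangles mark members at over 10 times this share. Most members with an authors' mean above 500 lie along the line, and Col17a1, Col9a2 and Col2a1 lie far above it.

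In all, 15 of the 38 members with a symbol in the counts were at 0 in every library. Among them, the authors' table gives a mean of 4 for Col11a1 and of 54 each for Col11a2 and Col7a1. A mean of this size corresponds to less than 1 count at the usual share. A further 9 members had counts but were not kept for the test. Of these, Col14a1 and Lamb3 had a single count each. Hspg2, the gene for perlecan, was not analysed here, and Nid1 was not among the symbols with counts.

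Genes that make, crosslink or bind these proteins were counted in 4 lists. None of the 7 tested genes for collagen modification in the endoplasmic reticulum met a criterion, with P4hb, a subunit of prolyl hydroxylase, at a log2 fold change of -0.03 (95% interval -0.57 to 0.51). Of 5 tested genes for secretion, propeptide cleavage and crosslinking, Pxdn fell and Loxl1 rose after adjustment. Of 10 tested receptors, Dag1 and Ddr1 fell after adjustment, and Sdc1 and Sdc2 were higher by the unadjusted criterion. Neither of the 2 tested genes in the list of further matrix proteins, Sparc and Bgn, met a criterion. Over all 24 tested genes of these lists, 3 were lower and 1 was higher after adjustment, and 3 were lower and 3 higher with the unadjusted p. Of all tested genes, 2.50% and 1.11% were lower and higher after adjustment, and 6.97% and 4.63% with the unadjusted p.

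Pxdn encodes peroxidasin, which crosslinks collagen IV. It had 13 and 37 counts in control cells and, for clones A and B, 4 and 2, or 208.8 and 358.2 CPM against 46.3 and 22.7 CPM. The log2 fold change was -3.03 (standard error 0.63, edgeR adjusted p = 0.00915), and the adjusted p was 0.202 without control 2, 0.0792 without clone B and 0.0644 with DESeq2. Like Col4a1, Pxdn had both clones below both controls, as had 21.5% of all tested genes. Both genes were named because they met a criterion for lower levels, so that this position adds nothing to their calls. Loxl1, a lysyl oxidase that acts on elastic fibres and collagens, had 4 and 11 counts in control cells and 30 in each clone. Its log2 fold change was 1.93 (standard error 0.46, edgeR adjusted p = 0.0240), with adjusted p-values of 0.121 without clone A, 0.147 without clone B and 0.234 with DESeq2.

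Ddr1, a receptor tyrosine kinase for collagens, had 25 counts in each control and 3, the floor, in each clone. The fit gave a change of -3.14 on the log2 scale (standard error 0.60, 95% interval -4.40 to -1.87, edgeR adjusted p = 0.00493). Ddr2, the related receptor, had 25 and 13 control counts against 18 and 21 in the clones, with a log2 fold change of -0.14. Dag1 encodes dystroglycan, the receptor of laminin and agrin. The study selected it as a candidate target in the same way as Col5a3, on these same samples and on other data. Dag1 had 81 and 102 control counts against 41 and 40 in the clones. Its log2 fold change was -1.29 (standard error 0.28, edgeR adjusted p = 0.0137), with an adjusted p of 0.117 without clone A, of 0.147 without clone B and of 0.0862 with DESeq2. None of the tested integrin chains met a criterion. Itga6, of laminin receptors, had a log2 fold change of -0.67 (95% interval -1.23 to -0.10), and Itgb1, the common beta chain, of 0.76 (95% interval 0.18 to 1.34). The syndecans, which bind matrix through heparan sulfate, had 9 and 15 counts of Sdc1 in the controls against 40 and 27 in the clones, and 11 and 8 counts of Sdc2 against 26 and 23. Their log2 fold changes were 1.40 and 1.23, with adjusted p-values of 0.0774 and 0.215 from edgeR. Without control 2, the log2 fold change of Sdc2 was 0.66.

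**Figure D5:**
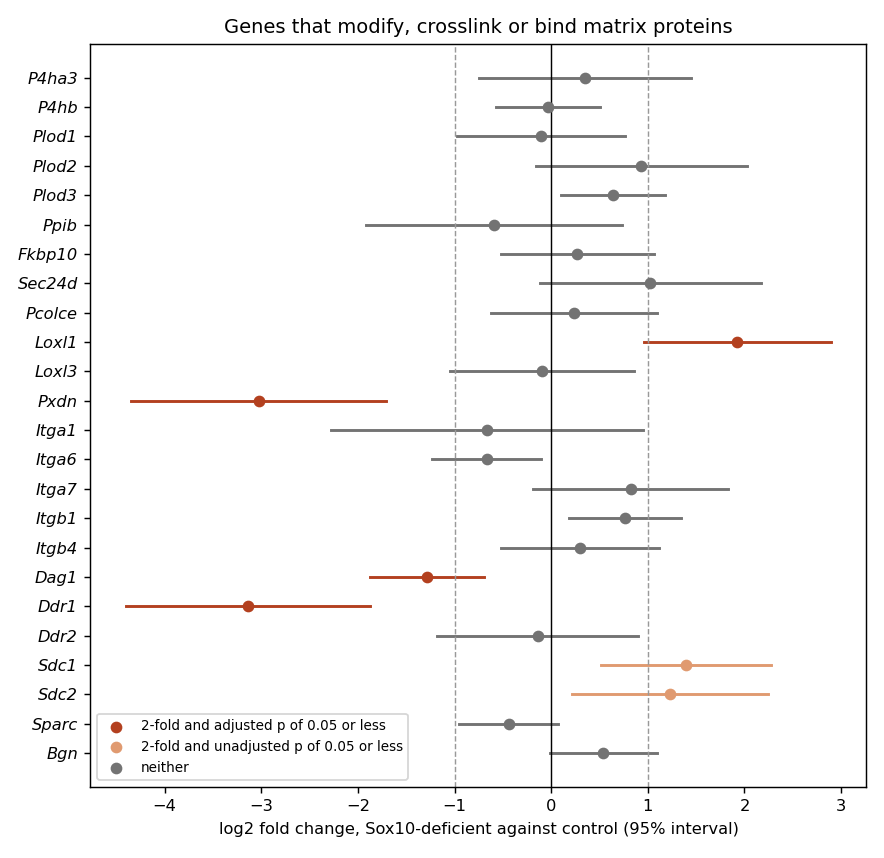
Log2 fold changes, Sox10-deficient against control, with 95% intervals for the 24 tested genes that modify, secrete, crosslink or bind matrix proteins, in the order of the lists. Colours mark the criterion met, the solid line is no change, and dashed lines mark 2-fold. Pxdn, Ddr1 and Dag1 lie to the left and Loxl1 to the right, while the genes for collagen modification at the top spread around the solid line.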

How the data were processed

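RNA-Seq data came from 4 OLN93 samples, 2 controls and 2 Sox10-deficient clones. The authors deposited raw counts per gene symbol for each library, made with STAR 2.5.1 on rat genome rn5 and HTSeq. The study's methods name a stranded mRNA kit and counting on Ensembl gene identifiers. How the deposited counts came to carry symbols, and the strand option in counting, are not given in the sources used here. From the authors' deposited table, only the mean normalized count, rounded and treated as a score, was used. Its other columns hold the authors' DESeq2 comparison and were not used. Genes were kept by filterByExpr, normalized by TMM and tested across the whole table in edgeR 4.0.16 (R 4.3.3, quasi-likelihood test, condition as sole term), with Benjamini-Hochberg adjustment over 2438 genes. Standard errors were derived from the F statistic. The test was tested on simulated data. Intervals on pooled counts are exact (Clopper-Pearson) and, like the floor of 3 counts, cover counting error only. Exact permutation tests were run in scipy 1.17.1. Precision was limited by totals of 60951 to 104017 counts per library in the deposited files, far below the read numbers in the study's methods, for a reason that was not tested.

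Members and lists were chosen with earlier results of these data known. Named in full were members that met a criterion, the member with most counts in each role list, Col5a3, and untested members with 3 counts or fewer in one group and over 12 in sum. Col1a1, Col27a1, Col5a1, Col3a1, Nid2, Col9a2, Col2a1, P4hb, Itga6, Itgb1, Ddr2, Sparc and Bgn, and the pairs of genes set in ratio, were named after their values were seen. Alternatives were DESeq2 1.42.0, its size factors or library totals in edgeR, testing every gene with a count, testing those with 10 counts or more per library, a block for the replicate number, a prior count of 0.5, and leaving out each library. An alternative without 586 genes was added after seeing the data. These had at least 10 counts in sum, an authors' mean above 0 and over 10 times the usual share of that mean. Col2a1 had too few counts to be among them. Promoters were matched by symbol in RefSeq for 45 of 58 members. Counts, CPM and ratios between genes are not corrected for transcript length. The values of 1 member are not reported here.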

Additional observations from a re-analysis of the deposited data

Results flagged for a closer look

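Of the 20 members that were not among the symbols with counts, 10 had a mean normalized count above 3 in the authors' table, a column with no values by group. The authors' mean is 18733 for Col6a1, 8030 for Col12a1, 6267 for Col4a2, 3769 for Lamb1, 1474 for Col6a3 and 1129 for Lama2. It is 56 for Col20a1, 43 for Col9a3, 14 for Nid1 and 6 for Col28a1. These means are over all libraries of the authors' comparison and give no direction. They hold the partner chains of Col6a2, Col4a1 and Lamc1.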

How the results depend on the processing

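The calls of Col4a1, Lamc1 and Col6a2 after adjustment held with DESeq2, under both other scalings, without a filter, without genes in excess of the usual share, with the replicate block and without each library in turn. The filter of at least 10 counts in every library removed Col4a1, Lama4, Col16a1 and Col27a1, all with low counts in the clones alone, so that by construction fewer members were lower (1 with either p) and the median log2 fold change over members was higher (0.12). Without a filter, 5 members were lower with the unadjusted p, as Agrn and Col16a1 joined. With a library left out, its group held 1 library, which was assumed to vary like the pair in the other group. Leaving out each library in turn gave 3 to 6 lower and 1 to 3 higher members with the unadjusted p, and 2 to 3 lower and 1 to 2 higher members with the adjusted p. The added genes were Col5a2 and Col5a3 without control 1, Fn1 without control 2, and Col16a1, Col1a1, Col27a1, Fn1 and Lama5 without clone A. In the same fits the median log2 fold change over members ranged from -0.89 to -0.38, that of Lamb2 from -0.22 to 0.50 and that of Col5a1 from -0.043 to 0.086, where the signs turned without control 2 and, for Col5a1, also without clone A. With the replicate block, the numbers of called members were the same, at 3 lower and 1 higher with the unadjusted p and 2 and 1 after adjustment, and the adjusted p of Fn1 was 0.0440, while that of Pxdn was 0.0856, that of Loxl1 0.100 and that of Sox10 0.1251. The labels do not say that same-numbered libraries belong together, and the correlation of their differences over genes was 0.121. Depth limited the test to 14 members.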
